A study of Cavia porcellus with 72 samples.

Results

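The hippocampal transcriptome of juvenile female guinea pigs of the F3 generation was compared between animals descended from betamethasone-exposed and from vehicle-exposed pregnancies. The comparison used the 13 F3 RNA libraries of the series, 7 labelled as synthetic glucocorticoid (sGC) animals and 6 as vehicle (control) animals, chosen by the generation and treatment that their labels give. They belong to 72 samples in all, of which 36 are RNA libraries and the rest bisulfite libraries for DNA methylation. All animals were Dunkin-Hartley guinea pigs killed in a resting state on postnatal day 40. The exposure itself lay in the F0 pregnancy, in which dams received courses of betamethasone or saline. F1 and then F2 males were bred with females from outside the experiment, so the F3 animals of both groups had no drug treatment themselves and reached the exposure through the paternal line. Each F3 animal came from a different mother. RNA was taken from powdered right hippocampus, which mixes neurons, glia and vessel cells, so that fewer cells of a type and less RNA per cell cannot be told apart in any value below.

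Betamethasone crosses the placenta and acts on the glucocorticoid receptor, which the hippocampus carries at high levels together with the mineralocorticoid receptor. Both receptors are held in a hormone-binding state by the HSP90 and HSP70 chaperone machinery. In this tissue they take part in feedback on the stress axis, in the excitability of pyramidal neurons and in memory.

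Control libraries held 15293893 to 18909140 counted reads (median 16331023.5) and sGC libraries 14703487 to 18535764 (median 15604680). Levels are given as counts per 1000000 reads (CPM) after TMM scaling, which corrects library totals for composition. Of 11663 genes in the table, 11359 had enough reads to be tested. Markers of hippocampal neurons were abundant in every library: SLC17A7, the vesicular glutamate transporter of excitatory neurons, lay between 1714.5 and 2212.4 CPM over both groups, and PROX1, a marker of dentate granule cells, between 85.3 and 119.2 CPM. On principal components of log2 CPM, the second component (12.99% of the variance) separated the groups, with control scores from 2.72 to 9.70 and sGC scores from -10.4 to -1.06. On the first component (15.65%), sGC replicate 6 stood apart at 18.5, where the other libraries lay between -6.32 and 6.65. Library numbers in the labels run from 21 to 31, except that sGC replicates 5 and 6 are numbered 36 and 34, which no control library is, so that library series and sGC descent overlap in part and their shares cannot be fully told apart.

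The count column of sGC replicate 5 could not be told from a weighted sum of other sGC columns. A sum of sGC replicates 1, 2, 3, 4 and 7, with weights of 0.152, 0.123, 0.221, 0.249 and 0.255, met its counts with a chi-square of 0.128 per gene over 11361 genes, where counting noise alone gives about 1. For the other 12 libraries, the best weighted sum of their group left 2.24 to 9.87. Within its group sGC replicate 5 was the highest or lowest library for 0.308% of genes, against 21.7% to 46.0% for the others, and it was the median for 31.7%. How this column came about is not given in the sources used here. Its values add little to those of the other columns, so tests that count it as a further replicate give p-values that are too small. Each adjusted p of an F3 gene is therefore printed as a pair, the first over all 13 columns and the next without sGC replicate 5, and counts of lists are given both ways. A call that rests on this column is named as lost. The counts of the larger lists are also given without sGC replicates 5 and 6.

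**Figure D1:**
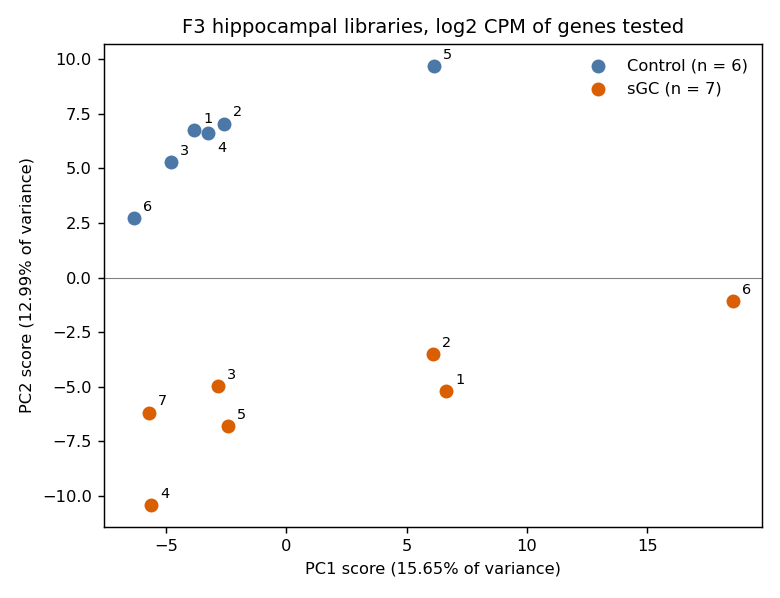
Principal component scores of the 13 F3 libraries from log2 CPM of the genes tested, with PC1 (15.65% of variance) on the x axis and PC2 (12.99%) on the y axis, blue for the 6 control and orange for the 7 sGC libraries, numbered by replicate. All control libraries lie above 0 on PC2 and all sGC libraries below 0, and sGC replicate 6 lies alone at 18.5 on PC1.

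In F3 sGC animals, 5.04% of the 11359 genes differed from control by the quasi-likelihood test of edgeR (Benjamini-Hochberg adjusted p below 0.05), 247 of them (2.17%) with a higher and 326 (2.87%) with a lower level. The share was 2.54% without sGC replicate 5, with 116 genes (1.02%) higher and 172 (1.52%) lower, all of them among those called with it. Genes that pass over all 13 columns are called higher or lower below, those that lose the call without sGC replicate 5 are named, and the size of change is the log2 fold change (log2FC) of sGC against control with its standard error (SE). Ribosomal protein and astrocyte genes stood on the higher side. Chaperone, synaptic vesicle, V-ATPase, neurofilament and glycolysis genes stood on the lower side. The differences were small: the median log2FC was 0.20 for the higher genes (1.149-fold) and -0.16 for the lower genes (0.897-fold), and 5 called genes lay beyond 0.5 in either direction. These 5, singled out after their values were seen, were NFATC4 (0.66), RIPK3 (0.63), RLBP1 (0.50) and DNAH3 (0.50) on the higher side and GBP5 (-0.73) on the lower, all with mean levels under 5 CPM in both groups. RIPK3, RLBP1 and DNAH3 lost the call without sGC replicate 5 (edgeR adjusted p = 0.0695, 0.0698 and 0.0822).

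Called genes were more abundant than the table as a whole, with a median of 111.1 CPM for higher genes and 163.7 CPM for lower genes against 37.0 CPM over all genes tested. For 308 genes (2.71% of those tested) the 2 groups did not overlap, so that every sGC library lay on one side of every control library. That held for 34.0% of the called higher genes and 54.6% of the called lower genes. Without sGC replicates 5 and 6, 161 genes were higher and 156 lower. Leaving out sGC replicate 6 alone gave 316 higher and 323 lower. The fit of all 36 RNA libraries together kept 284 of the calls (49.6%). Among the genes given below that lost the call in it were RPS28, DNAJA1, SHANK1, SHANK3, CACNA2D3, ATP2A2, SLC6A7, SHC3 and B3GALT4. SLC1A2, S100B, Slc4a4, CACNG4, EEF1G, MAP3K10 and PDE1A lost it there as well. Across the 13 fits that each left out 1 library, 274 of the 573 called genes passed every time (110 higher and 164 lower), and 0 changed sign. The fits without sGC replicate 1, 2, 3, 4 or 7 kept sGC replicate 5, whose column is close to a weighted sum of theirs. Values of the library left out thus stayed in part in those fits, here and wherever such fits are counted below.

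**Figure D2:**
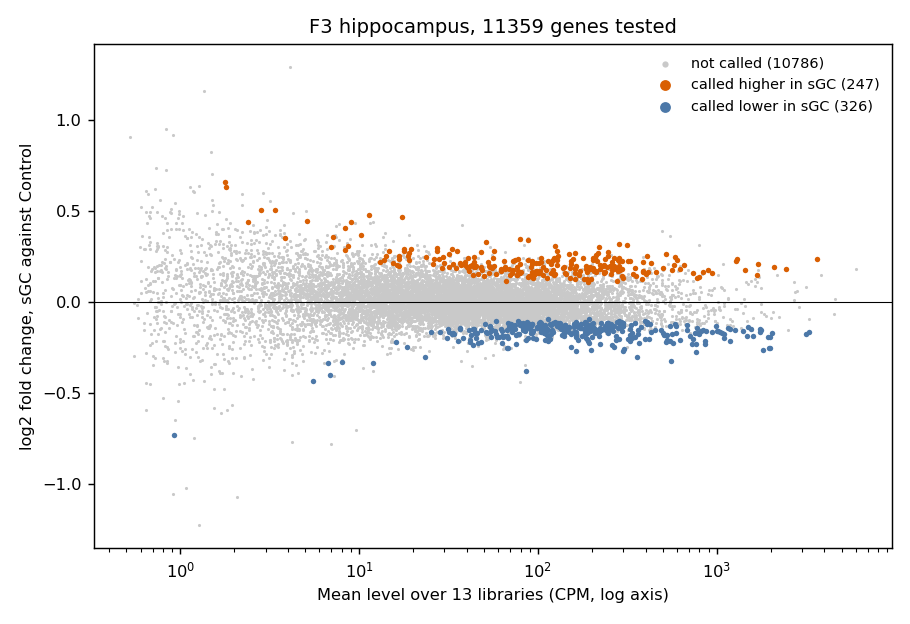
Log2FC of sGC against control (y axis) against the mean level over the 13 F3 libraries in CPM (x axis, log scale) for each of the 11359 genes tested, with 247 called higher in orange, 326 called lower in blue and the rest in grey. Called genes lie mostly within 0.5 of 0 and toward higher levels.

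For 3 genes called lower in F3, the study had designed PCR primers, which show the part of each transcript it chose to follow by an independent assay. These are NR3C2, the mineralocorticoid receptor, GAD1, which makes GABA in inhibitory neurons, and SYP, the synaptic vesicle protein synaptophysin. They are given from the 5′ end.
NR3C2 forward: aaacgtatcaagctctactttac
NR3C2 reverse: cccatagtgacatcctgag
GAD1 forward: tgtttgcccgagatctgctt
GAD1 reverse: tggtggagcgatcaaaggtc
SYP forward: gacatggacgtggtgaatcag
SYP reverse: tcttgttggcacattccacg

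The corticosteroid receptors and the cochaperones that fold them came lower in part. Of 20 genes tested on this list, 0 were higher and 8 lower. The median log2FC was -0.09, beside 0.0048 over all genes tested. The lower genes were 6 without sGC replicate 5 and 5 without sGC replicates 5 and 6. NR3C2 spanned 143.3 to 148.6 CPM in control (median 146.2) and 121.4 to 138.4 CPM in sGC animals (median 128.4). Every sGC library was below every control library. Its log2FC was -0.18 (SE 0.0333, edgeR adjusted p = 0.00752 and 0.0225), or 11.8% lower.

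NR3C1, the glucocorticoid receptor itself, spanned 97.1 to 106.9 CPM in control and 93.4 to 112.5 CPM in sGC animals. The groups overlapped, and the log2FC of 0.06 (SE 0.041) did not pass the test (edgeR adjusted p = 0.46 and 0.506). The other called members were chaperones. HSPA8, the constitutive HSP70 that hands the receptor to HSP90, fell from a control range of 2060.7 to 2308.3 CPM (median 2167.8) to 1756.6 to 1948.1 CPM in sGC animals (median 1820.1), without overlap. This was a log2FC of -0.25 (SE 0.0351, edgeR adjusted p = 0.00195 and 0.00798). HSP90AA1, the inducible cytosolic HSP90, had 2107.5 to 2251.5 CPM in control and 1856.0 to 2021.4 CPM in sGC animals, again without overlap (log2FC -0.17, edgeR adjusted p = 0.00568 and 0.0196). DNAJA1, an HSP40 partner of HSPA8, went from a median of 232.5 to 207.4 CPM (log2FC -0.16, edgeR adjusted p = 0.00902 and 0.0233). STIP1, DNAJA2, PPP5C and HSPA4 were also called lower, with log2FCs from -0.14 to -0.11, and PPP5C and HSPA4 lost the call without sGC replicate 5. Of 19 glucocorticoid target genes tested, 1 was called (5.26%, beside 5.04% of all genes), GLUL, which also stands on the astrocyte list and was higher, but not without sGC replicate 5.

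The wider group of heat shock proteins and chaperonins, which refold damaged proteins and fold new ones, was among the lists with the most lower genes. Of 55 tested, 16 were lower and 0 higher, and the median was -0.08. Leaving out sGC replicate 5 left 11 lower, and leaving out sGC replicates 5 and 6 left 8. This list shares HSPA8, HSP90AA1, DNAJA1, DNAJA2, STIP1 and HSPA4 with the receptor list. HSPH1, the HSP110 nucleotide exchange factor for HSP70, had the smallest p of all 11359 genes. It lay between 313.7 and 346.6 CPM in control (median 333.6) and between 263.6 and 286.9 CPM in sGC animals (median 280.2), a log2FC of -0.26 (SE 0.0304, edgeR adjusted p = 0.00168 and 0.0078).

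Its relative HSPA4L fell by 0.18 on the log2 scale (edgeR adjusted p = 0.0027 and 0.0117). The stress-inducible HSPA1A had the largest fall among called genes of at least 5 CPM, from a median of 6.37 to 4.88 CPM (log2FC -0.43, edgeR adjusted p = 0.0217 and 0.0473), but in edgeR its adjusted p was 0.0504 without control replicate 2 and 0.0858 without sGC replicates 5 and 6. By family, 6 of 12 HSP70 and HSP110 genes, 1 of 3 HSP90 genes, 2 of 15 DNAJ genes and 4 of 7 subunits of the CCT chaperonin, which folds tubulin and actin, were called lower. These counts were 4, 1, 2 and 3 without sGC replicate 5. All 7 CCT subunits had a log2FC below 0, from -0.21 to -0.09. The 4 small heat shock proteins tested had values between 0.01 and 0.17, and 0 of them passed the test in edgeR. Genes of the HSPA1A and HSPA8 type have near-identical copies, and how reads shared between copies were counted is not given in the sources used here.

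**Figure D3:**
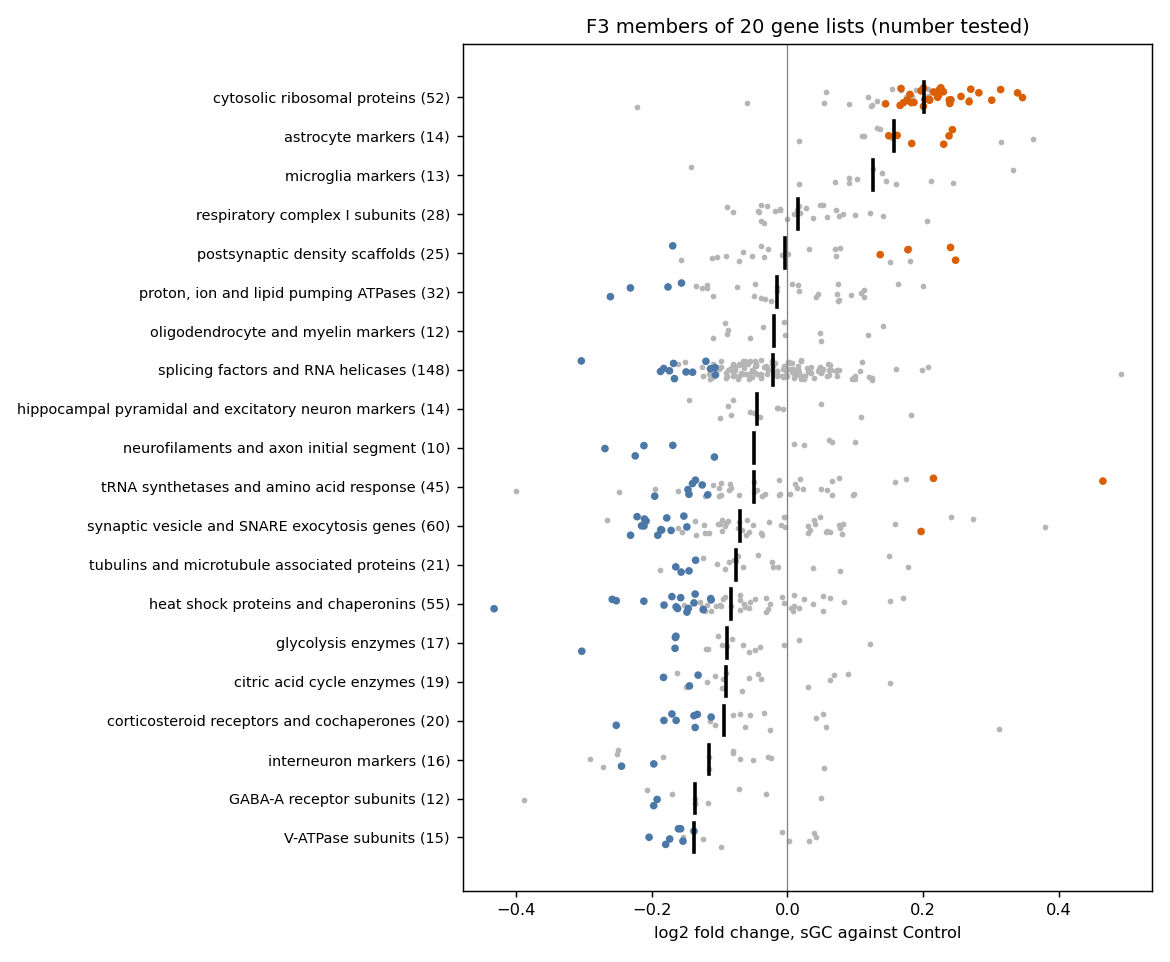
Log2FC of sGC against control (x axis) for each member tested of 20 gene lists (y axis, with the number tested), ordered by their median, which the black bar marks. Orange points were called higher, blue points called lower and grey points not called. Cytosolic ribosomal proteins and astrocyte markers lie to the right of 0, and V-ATPase, GABA-A receptor and receptor cochaperone genes to the left.

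Cytosolic ribosomal proteins made up the largest group of higher genes. Of 52 tested, 33 were called higher and 0 lower, 50 had a log2FC above 0, and the median was 0.20. The higher genes numbered 22 without sGC replicate 5 and 27 without sGC replicates 5 and 6. The small subunit gave 16 of 21 and the large subunit 17 of 31, and 12 and 10 without sGC replicate 5. RPS28, a small subunit protein, lay between 73.2 and 81.6 CPM in control (median 77.2) and between 82.9 and 105.4 CPM in sGC animals (median 97.9). The groups did not overlap, although sGC replicate 1, at 82.9 CPM, lay well below the other sGC libraries. Its log2FC was 0.34 (SE 0.0474, edgeR adjusted p = 0.00195 and 0.00798). RPS28 lost the call in the fit of all 36 RNA libraries together.

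RPL28, of the large subunit, had 59.2 to 75.2 CPM in control and 80.9 to 97.1 CPM in sGC animals (log2FC 0.35, SE 0.0539, edgeR adjusted p = 0.00295 and 0.0114). Rps7 went from a median of 260.3 to 305.4 CPM (log2FC 0.23, edgeR adjusted p = 0.00398 and 0.0143), with control replicate 5 at 235.2 CPM below the other controls. RPS9 rose by 0.24 on the log2 scale (edgeR adjusted p = 0.0054 and 0.0189). Summed over the 52 genes, control libraries held 7410.9 to 8918.7 CPM and sGC libraries 8960.6 to 10359.1 CPM, without overlap but with control replicate 6 close to the lowest sGC libraries. Ribosomal protein genes have many processed copies in mammalian genomes, and how reads shared with such copies were counted is not given in the sources used here.

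Mitochondrial ribosomal proteins did not share this pattern of counts, with 1 of 64 higher (MRPL14), 1 lower (MRPL15) and a median of -0.01. Both calls were lost without sGC replicate 5. The difference between both lists was not tested. Among 43 translation initiation and elongation factors, EEF1G, a subunit of the elongation factor complex that loads aminoacyl-tRNA, was higher (log2FC 0.18, edgeR adjusted p = 0.0166 and 0.0415). EIF4G3, EIF4A3 and EIF2B2 were lower by 0.15 to 0.14 on the log2 scale with adjusted p between 0.0373 and 0.0496 in edgeR, and each lost the call in at least 10 of the 13 fits that left out 1 library, sGC replicate 5 included. tRNA synthetases and genes of the amino acid response gave 2 higher and 7 lower of 45. MARS2, the mitochondrial methionyl-tRNA synthetase, spanned 12.2 to 17.7 CPM in control and 18.5 to 21.9 CPM in sGC animals (log2FC 0.46, edgeR adjusted p = 0.00526 and 0.0158). SARS, LARS, EPRS, YARS and IARS, which charge cytosolic tRNAs, were each lower by 0.15 to 0.12. The list held 5 calls without sGC replicate 2. With sGC replicate 5 left out it held 2 higher and 2 lower, and LARS, EPRS, YARS and IARS lost the call. Without sGC replicates 5 and 6, 0 genes of that list were lower in edgeR and 1 was higher.

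Astrocyte markers also stood on the higher side. Of 14 tested, all 14 had a log2FC above 0, 6 were called higher, and the median was 0.16. Leaving out sGC replicate 5 left 3 higher (SLC1A2, S100B and Slc4a4). Without sGC replicates 5 and 6, 3 were higher, and 3 were also left without control replicate 2 or 5 or sGC replicate 1, 3 or 4 alone. In the fit of all 36 RNA libraries together 1 was called higher, and 1 with the replicate block (medians of 0.16 and 0.17). SLC1A2, S100B and Slc4a4 lost the call in both, with adjusted p of 0.0918, 0.0582 and 0.0735 in edgeR with the block. SLC1A2, the main glutamate uptake carrier of astrocytes, spanned 2973.0 to 3505.0 CPM in control (median 3312.7) and 3414.3 to 4437.8 CPM in sGC animals (median 3866.3). The groups overlapped at their edges, and the log2FC was 0.24 (SE 0.0553, edgeR adjusted p = 0.0201 and 0.037).

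S100B, a calcium-binding protein of astrocytes, had a median of 543.5 CPM in control and 648.8 CPM in sGC animals (log2FC 0.23, edgeR adjusted p = 0.0156 and 0.0388). Slc4a4, the sodium bicarbonate cotransporter, went from 240.4 to 275.2 CPM (log2FC 0.24, edgeR adjusted p = 0.0178 and 0.0334). The gap junction gene GJB6, the glutamine synthetase GLUL and NDRG2 were called with log2FCs of 0.18, 0.15 and 0.16. GJB6 and GLUL passed in 6 and 3 of the 13 fits that left out 1 library, and all 3 lost the call without sGC replicate 5. AQP4, the water channel of astrocyte endfeet, had a log2FC of 0.31 and did not pass (edgeR adjusted p = 0.0746 and 0.0975), and control replicate 6, at 867.8 CPM, lay above the other controls. Summed over the 14 markers, control libraries held 13101.4 to 14170.0 CPM and sGC libraries 14539.9 to 16212.8 CPM, without overlap.

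Markers of the other cell types were called in few cases. Of oligodendrocyte and myelin, oligodendrocyte precursor (OPC), microglia, endothelial, meningeal, choroid plexus, ependymal, pyramidal and striatal markers, 0 were called in either direction by edgeR's quasi-likelihood test. At an unadjusted p below 0.05 the counts were 1 of 12, 1 of 8, 3 of 13, 2 of 13, 3 of 14, 2 of 7, 1 of 8, 3 of 14 and 3 of 10 in that order. The pyramidal markers summed to 11114.4 to 11789.1 CPM in control and 9984.1 to 13517.8 CPM in sGC animals, with a median log2FC of -0.04. Choroid plexus markers had a median of -0.32, and of their summed level control replicate 5 held 288.8 CPM against 109.6 to 146.1 CPM in the sGC libraries. Without that library the median was -0.03. PDGFRB among mural cell, NPNT among dentate granule cell, LEF1 among thalamic and RORB among deep neocortical markers were the single members of their lists called, all higher, and of these PDGFRB and RORB kept the call in 4 and 7 of the 13 fits that left out 1 library and lost it without sGC replicate 5. LEF1 lost it without sGC replicates 5 and 6 (edgeR adjusted p = 0.0638), and all 4 genes lost it in the fit of all 36 libraries together. CSF1R and CX3CR1 of microglia, CLDN5 and PECAM1 of endothelium and PDGFRA of OPCs were detected in every library. Microglia and OPC markers had medians of 0.13 each and meningeal markers of 0.18, with 12 of 13, 8 of 8 and 14 of 14 above 0. Of the mural cell markers 8 of 8 were above 0 (median 0.15) and of the ependymal markers 7 of 8 (median 0.10). The part of cell composition in the results of other genes was not tested.

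**Figure D4:**
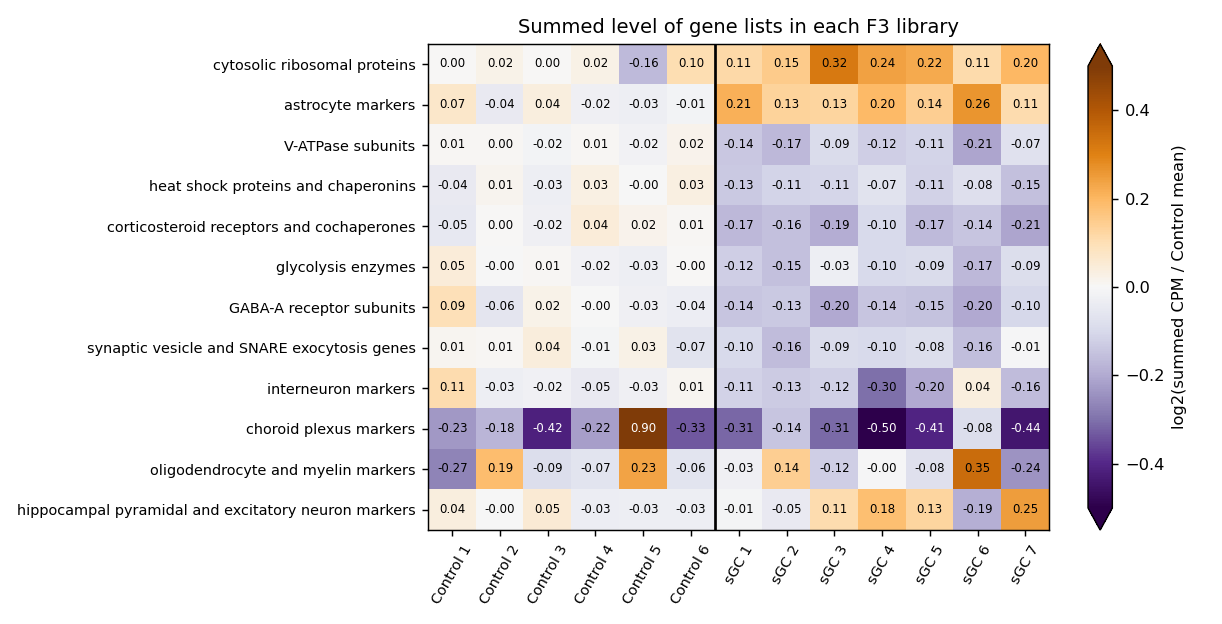
Summed CPM of 12 gene lists in each F3 library, as log2 of the ratio to the control mean, with control libraries left and sGC libraries right of the black line (colour scale cut at 0.5). Ribosomal proteins and astrocyte markers lie above the control mean in all 7 sGC libraries and V-ATPase, chaperone, glycolysis and GABA-A receptor genes below it, whereas control replicate 5 is high for choroid plexus markers (0.90) and sGC replicate 6 for myelin markers (0.35).

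Genes of the synaptic vesicle and its release machinery were mostly on the lower side. Of 60 tested, 13 were lower and 1 higher, with a median of -0.07. The counts were 10 lower and 1 higher without sGC replicate 5, and 9 and 1 without sGC replicates 5 and 6. SYP, whose primers are given above, spanned 1247.2 to 1321.7 CPM in control (median 1284.5) and 1055.7 to 1149.1 CPM in sGC animals (median 1109.4). All 7 sGC libraries were below all 6 controls, with a log2FC of -0.21 (SE 0.0286, edgeR adjusted p = 0.00195 and 0.00798). SV2A, a vesicle glycoprotein, had 783.6 to 899.7 CPM in control and 673.3 to 731.2 CPM in sGC animals (log2FC -0.23, edgeR adjusted p = 0.00285 and 0.0117).

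Its homologue SV2B fell by 0.22 on the log2 scale, and CADPS, which primes dense core vesicles for release, by 0.21 (edgeR adjusted p = 0.00483 and 0.0143 for each gene). The synaptotagmins SYT1, SYT4 and SYT12, the phosphoprotein SYN1, the plasma membrane SNARE SNAP25, the endocytic proteins AMPH and DNM1, NAPB and the vesicle GTPase RAB3A were the other lower genes, with log2FCs from -0.21 to -0.15. SYT12, NAPB and RAB3A lost the call without sGC replicate 5. Of 11 SNAREs tested SNAP25 alone was called, and of 9 synaptotagmins 3. RIMS2, an active zone scaffold, was the higher gene, by 0.20. Among RAB GTPases, which direct vesicle traffic, 2 of 48 were lower (RAB3A and RAB2B) and 2 higher (RAB13 and RAB22A). Together this was 8.33%, beside 5.04% of all genes. Only RAB13 passed without sGC replicate 5, and without sGC replicates 5 and 6 its adjusted p was 0.066 in edgeR.

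Of 25 postsynaptic density scaffolds, which anchor receptors on the receiving side of the synapse, 4 were higher and 1 lower. Of all 25, 12 had a log2FC above 0 and 13 below it, and the median was -0.0043. The calls were 2 higher (SHANK1 and SHANK3) and 1 lower without sGC replicate 5, and 5 and 1 without sGC replicates 5 and 6. SHANK1, a master scaffold of excitatory spines, spanned 479.6 to 568.7 CPM in control and 575.6 to 702.9 CPM in sGC animals, without overlap (log2FC 0.25, SE 0.0491, edgeR adjusted p = 0.0093 and 0.0259). SHANK3 had a median of 258.9 CPM in control and 314.1 CPM in sGC animals (log2FC 0.24, edgeR adjusted p = 0.0123 and 0.0331). DLG4, the PSD-95 gene, was among the higher genes as well, by 0.14, but not without sGC replicate 5. The list held 3 calls without control replicate 1, 3, 4 or 6. DLG3, which encodes SAP102, was lower (log2FC -0.17, edgeR adjusted p = 0.00568 and 0.0195), with 194.5 to 206.8 CPM in control and 167.7 to 186.0 CPM in sGC animals.

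Of 17 AMPA, kainate and NMDA receptor subunits, 1 was lower and 0 higher (5.88%, beside 5.04% of all genes), and 0 without sGC replicate 5 in edgeR. GRIA1, the AMPA receptor subunit, had a median of 1245.1 CPM in control and 1132.5 CPM in sGC animals (log2FC -0.15, edgeR adjusted p = 0.0227 and 0.0546). In edgeR its adjusted p was at most 0.0557 in fits that left out 1 library, and it lost the call without control replicate 3 or sGC replicate 5. The call was also lost without sGC replicates 5 and 6 (0.0602), with the replicate block (0.0622) and in the fit of all 36 libraries. GRIN2A, an NMDA receptor subunit for which primers were designed as well, spanned 243.9 to 303.7 CPM in control and 242.4 to 339.0 CPM in sGC animals, and its log2FC of 0.06 did not pass the test (edgeR adjusted p = 0.636 and 0.647). Among 10 auxiliary AMPA receptor subunits, CACNG4 was higher (0.17) and CACNG5 lower (-0.17), the latter in 3 of the 13 fits that left out 1 library, which do not include the fit without sGC replicate 5. CACNG4 lost the call with the replicate block (edgeR adjusted p = 0.0666) and in the fit of all 36 libraries. SLITRK1 and LRRTM1, leucine-rich repeat proteins that organise synapses, were the 2 of 36 adhesion genes called (5.56%, beside 5.04% of all genes), both lower (log2FCs -0.21 and -0.16) and called without sGC replicate 5 as well.

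Of 12 GABA-A receptor subunits, the channels of inhibitory transmission, 2 were called lower and 10 did not pass. A log2FC below 0 was seen in 11, and the median was -0.14. The count of lower subunits was 2 without sGC replicate 5 and also without sGC replicates 5 and 6. GABRA2, an alpha subunit found at hippocampal synapses, spanned 338.1 to 377.6 CPM in control (median 363.9) and 293.7 to 337.4 CPM in sGC animals (median 310.8), without overlap (log2FC -0.20, SE 0.0357, edgeR adjusted p = 0.00724 and 0.0192).

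Of 16 interneuron markers, 15 were below 0 and 2 were called, the GABA synthesis enzymes GAD1 and GAD2. Leaving out sGC replicate 5 left 2 lower as well, and leaving out sGC replicates 5 and 6 gave 3. GAD1, whose primers are given above, spanned 269.3 to 309.0 CPM in control (median 290.0) and 210.8 to 289.5 CPM in sGC animals (median 244.1). The groups overlapped, and the log2FC was -0.24 (SE 0.0559, edgeR adjusted p = 0.0183 and 0.0474). GAD2 went from a median of 199.0 to 175.8 CPM (log2FC -0.20, SE 0.0409, edgeR adjusted p = 0.0116 and 0.0331). In the 7 genes of the GABA-B receptor and inhibitory scaffold list, and in 4 metabotropic glutamate receptors, 14 acetylcholine receptors, 19 monoamine receptors and 31 neuropeptide genes, 0 were called in edgeR, with 1, 0, 2, 3 and 4 at an unadjusted p below 0.05.

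The ion pump and channel genes given next were lower where they were called. Of 15 V-ATPase subunits, which acidify vesicles and lysosomes, 7 were lower and 0 higher, with a median of -0.14. Of these 6 were lower without sGC replicate 5 and 4 without sGC replicates 5 and 6. ATP6AP2, an accessory subunit, spanned 191.8 to 210.5 CPM in control and 168.1 to 184.4 CPM in sGC animals, without overlap (log2FC -0.20, SE 0.0311, edgeR adjusted p = 0.0027 and 0.0114). The membrane sector gene ATP6V0C and the catalytic sector genes ATP6V1A and ATP6V1B2 fell by 0.16, 0.18 and 0.16 on the log2 scale. Summed over the 15 subunits, control libraries held 4963.6 to 5084.5 CPM and sGC libraries 4344.8 to 4778.2 CPM.

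Of 32 other pumping ATPases, 4 were lower, 3 of them without sGC replicate 5. Atp1b1, the beta subunit of the sodium potassium pump, spanned 1910.5 to 2064.2 CPM in control and 1512.1 to 1764.7 CPM in sGC animals (log2FC -0.26, SE 0.0357, edgeR adjusted p = 0.00195 and 0.00798). ATP2A2, the calcium pump of the endoplasmic reticulum, fell by 0.16 on the log2 scale. CACNA2D3, an auxiliary subunit of voltage-gated calcium channels, had 158.4 to 173.9 CPM in control and 135.9 to 147.2 CPM in sGC animals (log2FC -0.24, SE 0.0303, edgeR adjusted p = 0.00168 and 0.0078). Its homologue CACNA2D1 was lower by 0.17, and these were the 2 of 24 calcium channel and CaM kinase genes called (8.33%, beside 5.04% of all genes). KCNJ3, a G protein-gated channel, was the 1 of 62 potassium channels called (1.61%), lower by 0.15. Among 13 voltage-gated sodium channels 0 were called in edgeR, and 5 had an unadjusted p below 0.05.

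Neurofilament genes, which encode the intermediate filaments of the axon, were lower. All 4 neurofilament subunits and UCHL1, an abundant neuronal deubiquitinase, were the 5 called genes of a list of 10. Of the whole list 5 genes lay above 0 and 5 below it, with a median of -0.05. Without sGC replicate 5, 4 were lower (INA lost the call), and without sGC replicates 5 and 6, 4. NEFH, the heavy subunit, spanned 306.5 to 355.8 CPM in control and 262.6 to 283.0 CPM in sGC animals, without overlap (log2FC -0.27, SE 0.0377, edgeR adjusted p = 0.00195 and 0.00798). NEFM, NEFL and INA fell by 0.22, 0.17 and 0.11 on the log2 scale. Of 21 tubulin and microtubule-associated genes MAPRE3, TUBA1C, MAP7D2 and TUBB4B were lower. Between 1 and 2 were called without control replicate 2, 3 or 5 or sGC replicate 2, 4 or 7, and without sGC replicate 5 only MAPRE3, which binds growing microtubule ends (log2FC -0.16, edgeR adjusted p = 0.0156 and 0.036). Without sGC replicates 5 and 6 its adjusted p was 0.0527 in edgeR, and with the replicate block 0.0577. Of 63 motor genes tested 4 were called (6.35%, beside 5.04% of all genes). The dynein subunits DYNC1I1 and DYNC1LI1, which move cargo toward the cell body, were lower by 0.20 and 0.19. The motors KIF1C and MYO6 were higher by 0.24 and 0.16. MYO6 kept its call in 4 of the 13 fits that left out 1 library, not that without sGC replicate 5, and the other 3 in all.

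APP, the amyloid precursor protein that is carried along axons, was among the genes with the smallest p. It spanned 2044.0 to 2267.9 CPM in control (median 2147.7) and 1776.6 to 1877.9 CPM in sGC animals (median 1807.5), with all 7 sGC libraries below all controls (log2FC -0.25, SE 0.0319, edgeR adjusted p = 0.00168 and 0.0078). Of the 24 genes of APP, its relatives and processing enzymes, 3 were lower, and APLP2 and ITM2C, both lower by 0.13, lost their call in 9 and 7 of the 13 fits that left out 1 library, sGC replicate 5 among them.

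**Figure D5:**
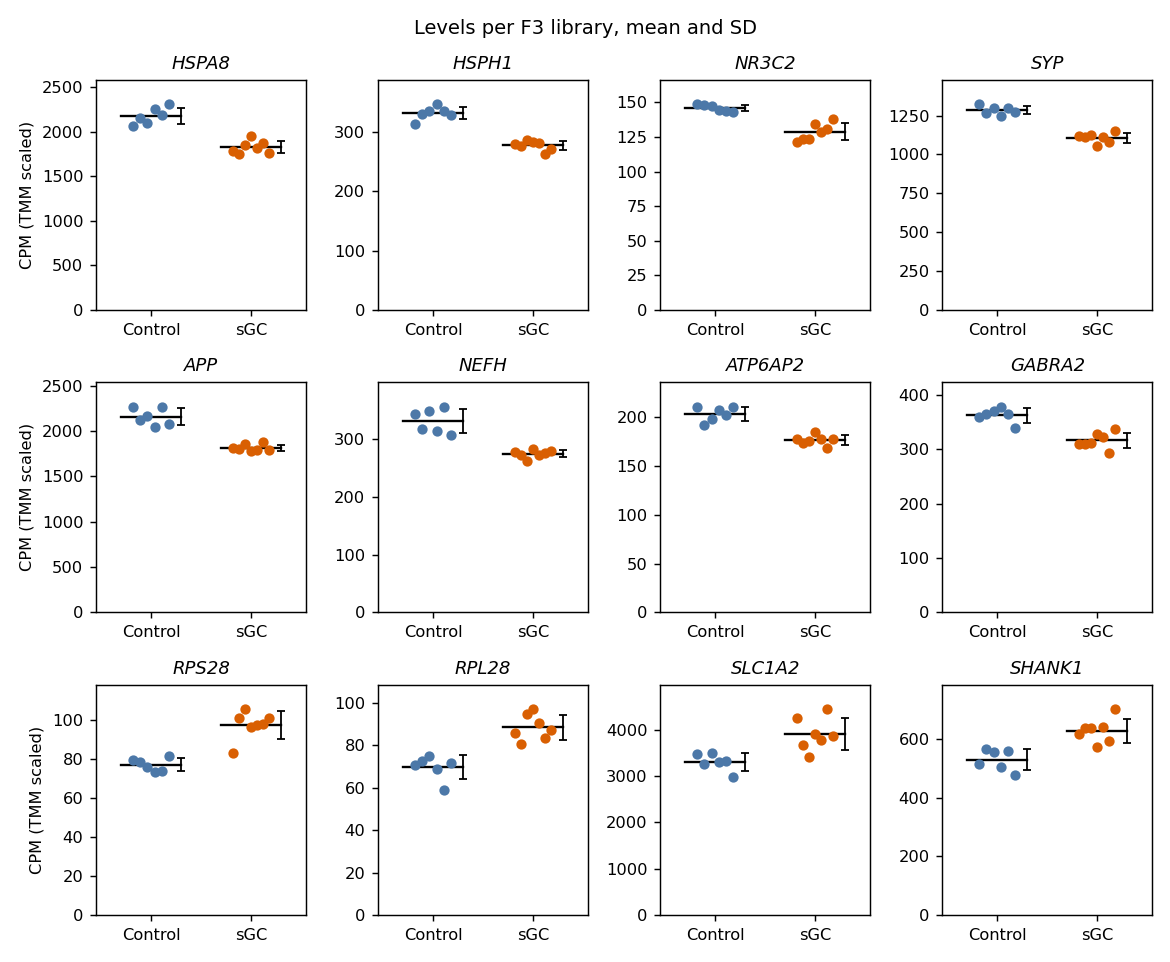
Level of 12 genes in each F3 library in TMM-scaled CPM (y axis from 0), with blue points for the 6 control and orange points for the 7 sGC libraries, a black bar for the mean and an error bar of 1 SD. The groups do not overlap for any of these genes except SLC1A2, and RPS28, RPL28, SLC1A2 and SHANK1 are higher and the other genes lower in sGC animals.

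Glycolysis and the citric acid cycle were lower where called. Of 17 glycolysis enzymes 4 were lower and 0 higher, with a median of -0.09, and 4 were lower without sGC replicate 5 and without sGC replicates 5 and 6. ENO2, the neuronal enolase, spanned 931.6 to 1043.1 CPM in control and 845.3 to 921.1 CPM in sGC animals (log2FC -0.17, edgeR adjusted p = 0.00899 and 0.0248). ALDOA and PKM fell by 0.17 and 0.16 on the log2 scale without overlap of the groups, and PFKP, a phosphofructokinase isoform, by 0.30 with overlap (edgeR adjusted p = 0.01 and 0.0259). Gapdh, which served as a PCR reference, had a log2FC of -0.09 (edgeR adjusted p = 0.16 and 0.224). Of 19 citric acid cycle enzymes, MDH1, SUCLG1 and PDHB were lower by 0.18, 0.13 and 0.14, of which PDHB lost the call without sGC replicate 5, and 1 gene was lower without sGC replicates 5 and 6. Respiratory chain and ATP synthase genes were rarely called: 0 of 28 complex I subunits in edgeR (6 at an unadjusted p below 0.05), UQCRC2 of 21 subunits of complexes II to IV, and ATP5A1 of 12 ATP synthase subunits, both lower by 0.14, called in 3 and 6 of the 13 fits that left out 1 library and lost without sGC replicate 5.

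In the nucleus, 12 of 148 splicing factors and RNA helicases were lower and 0 higher, a share of 8.11% beside 5.04% of all genes. Without sGC replicates 5 and 6, 5 were lower. The same count of 5 came from leaving out sGC replicate 5 alone, where 2.54% of all genes were called. Leaving out control replicate 2 or 3 or sGC replicate 1 gave 7. Of the RNA helicases, DDX24 spanned 116.8 to 124.6 CPM in control and 103.1 to 113.0 CPM in sGC animals (log2FC -0.19, edgeR adjusted p = 0.00393 and 0.0143). DDX1 and DDX10 fell by 0.18 and 0.30 on the log2 scale, and the hnRNP gene HNRNPH2 by 0.17. Of 153 zinc finger genes 5 were higher and 1 lower, a share of 3.92% that lies below the 5.04% of all genes. Histone modifying and chromatin remodelling genes gave 2 higher (CHD3 and HDAC5) and 1 lower (SMARCA5) of 108, or 2.78%. Without sGC replicate 5, CHD3 alone was called among the latter and 1 zinc finger gene among the former. The zinc finger list held between 1 and 3 calls without control replicate 1, 2, 3 or 4 or sGC replicate 1, 4 or 7. Of 19 DNA methylation writers, erasers and readers 0 were called in edgeR and 5 had an unadjusted p below 0.05, with a median of 0.10.

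Protein disposal, lipid and signalling lists held few calls, and their counts hung on single libraries. Without sGC replicate 5 the endoplasmic reticulum list held 0 calls in edgeR, the ganglioside list 1, the MAP kinase list 2 and the G protein list 1, against 4, 4, 5 and 5 with it. The calls that held without it were B3GALT4, MAP3K10, MAP2K4, SHC3 and PDE1A. The proteasome had 3 of 37 lower (PSMD1, PSMD6 and PSMD7), or 8.11% beside 5.04% of all genes, and 0 without sGC replicate 5 in edgeR. Of 20 ubiquitin conjugating enzymes 0 were called in edgeR, with 3 at an unadjusted p below 0.05. The endoplasmic reticulum list gave SSR4 higher and RPN1, HYOU1 and PDIA3 lower of 28. Ganglioside synthesis gave B3GALT4, ST3GAL2 and ST6GALNAC6 higher and ST3GAL5 lower of 21. B3GALT4, which makes the core of complex gangliosides, spanned 200.2 to 240.0 CPM in control and 250.4 to 297.8 CPM in sGC animals (log2FC 0.25, edgeR adjusted p = 0.00765 and 0.0224). In the MAP kinase cascade 3 of 51 were higher, among them MAP3K10 (0.20) and KSR2 (0.18), and 2 lower, among them MAP2K4 (log2FC -0.16, edgeR adjusted p = 0.00774 and 0.0221). SHC3, a neuronal adaptor of neurotrophin receptors, was higher (log2FC 0.22, edgeR adjusted p = 0.00902 and 0.0248) with FRS2 (0.17), 2 of 15 on the neurotrophin list. Of the G protein and cyclic nucleotide genes, GNA12 and GNAI2 were among 3 higher and PDE1A and RGS7 the 2 lower of 68. The shares called were 7.35% on this list and 9.8% on the MAP kinase list, beside 5.04% of all genes.

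Further lists with 1 call were clock genes (RORB, higher, of 20) and laminins, integrins and net genes (ITGB5, higher, of 42). These shares were 5% and 2.38%, beside 5.04% of all genes, and both calls were lost without sGC replicate 5. Immediate early genes, cholesterol synthesis and collagen genes had 0 called of 23, 22 and 34 in edgeR, with 3, 2 and 7 at an unadjusted p below 0.05. The 65 lists together held 77 of the higher and 114 of the lower genes, or 33.3% of those called, beside 16.4% of all genes tested. The lists were chosen with earlier results of these data known, so the larger share can follow in part from the choice. Called genes were also more abundant than all genes tested, and the share was not tested.

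The genes outside any list included several with the smallest p, and all named here kept the call without sGC replicate 5. Among the higher genes, GPM6B, a membrane proteolipid of neurons and glia, spanned 1885.3 to 1985.1 CPM in control and 2130.3 to 2292.9 CPM in sGC animals (log2FC 0.19, edgeR adjusted p = 0.00269 and 0.011). TSPOAP1, a scaffold that binds RIM proteins at active zones, CAPN10, a calpain protease, TSC22D4, SPTSSA, a subunit of serine palmitoyltransferase, SEPT11, a septin, and CENPB rose by 0.19 to 0.28 on the log2 scale, each without overlap. Among the lower genes, NELL2, a secreted neuronal glycoprotein, spanned 822.0 to 874.5 CPM in control and 657.6 to 742.4 CPM in sGC animals (log2FC -0.27, SE 0.0352, edgeR adjusted p = 0.00168 and 0.0078). UBQLN2, a ubiquitin-binding shuttle, EPB41L3, a membrane skeleton protein, SERINC1 and C20orf196 were lower by 0.32 to 0.18, without overlap.

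By size, the largest rises among called genes of at least 5 CPM were in P2RY1, an ATP and ADP receptor (0.48), MARS2, RHOJ (0.44), MCM3 (0.44), CYTH4 (0.40) and KCP (0.37). P2RY1 had a median of 9.56 CPM in control and 12.1 CPM in sGC animals, and its adjusted p of 0.0204 in edgeR became 0.036 without sGC replicate 5 and 0.0509 without control replicate 4. The largest falls were in HSPA1A, IQCJ (-0.40), SLC6A7 (-0.38), POLG2 (-0.34), DGAT2 (-0.33) and GPN2 (-0.33). SLC6A7, a brain proline transporter, spanned 85.1 to 107.3 CPM in control and 65.1 to 86.8 CPM in sGC animals (edgeR adjusted p = 0.00475 and 0.0143). KCP, DGAT2 and GPN2 kept their call in 6, 5 and 2 of the 13 fits that left out 1 library, and these 3, MCM3 and POLG2 lost it without sGC replicate 5.

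Whether the F3 differences stand apart from those of the first (F1) and second (F2) generation was tested as an interaction over the 36 RNA libraries. In edgeR's quasi-likelihood test, 0 of 11390 genes (0%) differed in their sGC effect between F3 and F1 and 0 (0%) between F3 and F2 at an adjusted p below 0.05. At an unadjusted p below 0.05 the counts were 1490 and 1034 genes, and the smallest adjusted p was 0.0724 and 0.339. The likelihood ratio test called 58 genes for F3 against F1, 24 of them with a larger log2FC in F3 and 34 with a smaller one, and 0 for F3 against F2. Without the libraries numbered 32 to 36, which include F1 and F2 sGC animals as well, 431 genes were called for F3 against F1 and 0 for F3 against F2. Leaving out 1 F3 library gave 61 genes for F3 against F1 without control replicate 6, 21 without sGC replicate 6, 6 without sGC replicate 1 and 0 otherwise.

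NR3C2 and IQCJ were among the genes that shared the smallest adjusted p for F3 against F1. Its log2FC was -0.18 in F3, 0.04 (SE 0.0383) in F1 and 0.01 (SE 0.0365) in F2, and the difference between F3 and F1 was -0.23 (edgeR adjusted p = 0.0724). GAD2 followed, at -0.20 in F3, 0.12 in F1 and -0.03 in F2 (edgeR adjusted p = 0.0909 for F3 against F1). Without sGC replicate 5 these adjusted p were 0.123 for NR3C2 and IQCJ and 0.15 for GAD2 in edgeR. HSPH1 and HSPA8 had -0.16 and -0.20 in F1, and -0.02 and -0.06 in F2. RPS28 had 0.13 in F1 and 0.37 in F2. SLC1A2 had 0.45 in F1 and 0.02 in F2. Of the genes called in F3, 565 were tested in all 3 generations, and 86.2% had the same sign in F1 and 78.2% in F2, beside 61.6% and 56.9% of all genes tested. Their median log2FCs for the higher genes were 0.20 in F3, 0.13 in F1 and 0.05 in F2, and for the lower genes -0.16, -0.06 and -0.03. The members were called on F3 values, so that a larger median in F3 follows in part from the choice.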

How the data were processed

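Hippocampal poly(A) RNA (TruSeq V2, single reads of 51 bases) was measured in 6 control and 7 sGC libraries of F3 animals, grouped by the generation and treatment in their labels. The deposited F3 table holds whole-number counts of reads for each gene in each library, not normalized. Per the labels' processing notes the reads were handled with TopHat2 and edgeR, while the counting tool and annotation are not given in the sources used here. The authors' comparison columns (fold changes, average level, test statistics, p-values and one unexplained column) and the methylation tables, which hold their comparisons only, were not used.

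Counts were kept by filterByExpr, scaled by TMM and tested with edgeR 4.0.16 (quasi-likelihood, Benjamini-Hochberg, 0.05), in R 4.3.3 with limma 3.58.1 and DESeq2 1.42.0, and summarised in Python 3.11.15 with pandas 2.3.3, numpy 2.4.6 and matplotlib 3.10.9. F1 and F2 counts entered only the joint fit of all 36 RNA libraries. It gave the interactions, the F1 and F2 log2FCs and an alternative F3 comparison. Within a group, pairs of libraries differed by a chi-square per degree of freedom of 4.11 to 16.6, but sGC replicate 5 differed from sGC replicates 1, 2, 3, 4 and 7 by 2.11 to 3.23, and its counts were met within counting error by a non-negative weighted sum of theirs (least squares, genes of a mean count of at least 10). It stayed in the fit as its label makes it a replicate, and each test was repeated without it. In simulated F3 counts, with each library drawn apart, 186 of 200 genes changed 1.5-fold were found among 11337, with 8 false calls. A column close to a sum of others, as sGC replicate 5 is, was not simulated, so the false calls do not cover that case.

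Members and lists were chosen with earlier results of these data known. Named genes were the 12 higher and 12 lower with the smallest p, the 6 largest rises and 6 largest falls among called genes of at least 5 CPM, up to 4 called members per list by p, the genes with PCR primers plus NR3C1, and the first 2 markers of each cell type, of which the uncalled ones are given through their list. Other called list members are named by their list, and a few genes that the rule picks are not reported here. Alternatives were other tests, scalings, filters, thresholds, sets of libraries and a replicate block.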

Additional observations from a re-analysis of the deposited data

Results flagged for a closer look

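For the named genes, each group was checked for 1 library whose gap to its nearest neighbour takes up an unusually large part of the group's range. This marked 20 of 324 groups (6.17%), where chance marks about 1 in 20 if the libraries of a group are drawn apart. In sGC groups that rate does not hold, as the column of sGC replicate 5 is close to a weighted sum of others. The check was not repeated without it.

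Among sGC libraries, the lowest stood apart for RPS28 (82.90 CPM in sGC replicate 1, the others from 96.3 CPM), TSPOAP1 (204.2 CPM in replicate 3, the others from 217.4), CAPN10 (34.8 CPM in replicate 4, the others from 38.2) and UBQLN2 (146.9 CPM in replicate 4, the others from 156.1). The same held for EPB41L3 (196.4 CPM in replicate 2), ATP2A2 (764.1 CPM in replicate 2), Znf664 (189.1 CPM in replicate 2), FRS2 (39.1 CPM in replicate 3) and NR3C1 (93.4 CPM in replicate 3, the others from 105.1). The highest sGC library stood apart for SERINC1 (1073.9 CPM in replicate 6), SARS (175.4 CPM in replicate 4) and ATP5A1 (781.2 CPM in replicate 3). sGC replicate 4 was also the highest for both defining microglia markers, CSF1R at 127.0 CPM (the others up to 112.0) and CX3CR1 at 66.1 CPM (the others up to 57.3).

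Among control libraries, the lowest stood apart for Rps7 (235.2 CPM in control replicate 5), SLC7A11 (78.5 CPM in replicate 6), HDAC5 (142.97 CPM in replicate 4) and GRIN2A (243.9 CPM in replicate 6). The highest stood apart for TLE4 (77.5 CPM in replicate 1) and AQP4 (867.8 CPM in replicate 6, the others up to 700.5).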

How the results depend on the processing

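The count of called genes kept within 1.5 times of 573 with the likelihood ratio test (788), limma-voom (561), DESeq2 size factors (558), upper quartile scaling (584), library size only (579), no filter on low counts (549) and a filter of 1 CPM in 6 libraries (574). DESeq2 called 8.31% of genes (412 higher and 532 lower) against 5.04%, and fitting all 36 RNA libraries together called 2.93% (92 higher). Without libraries 32 to 36 it was 2.79% (161 higher and 156 lower). A threshold of 0.01 gave 1.21% (50 and 87) and of 0.1 gave 9.33% (500 and 560). Without sGC replicate 5, whose column is close to a sum of other columns, it was 2.54% (116 higher and 172 lower), and 88 of the 141 called genes of the naming rule passed. Leaving out each library in turn gave 2.54% to 5.63%, 116 to 316 higher and 172 to 323 lower. The fits without sGC replicate 1, 2, 3, 4 or 7 kept sGC replicate 5, so values of the library left out stayed in part. Of the 141 called genes that the naming rule picks, 84 passed in all 13 fits that left out 1 library and 90 without libraries 32 to 36. None of their log2 fold changes changed sign under any alternative. The replicate block, over the 12 libraries whose numbers occur in both groups, called 1.51% (70 higher and 101 lower), where the same libraries without it, an alternative chosen after seeing the data, gave 193 and 267. The numbers share no pairing: deviations of same-numbered libraries correlated at -0.287 to 0.0202, and 0 of 6 correlated best with their own number. For F3 against F1, the likelihood ratio test called 58 genes, leaving out 1 F3 library 0 to 61, and leaving out libraries 32 to 36 431, against 0 here. All fits of F3 against F2 gave 0. The causes were not tested. The simulation covered 1.5-fold changes, larger than most called here, so how many smaller changes this depth would miss is not known. It drew each library apart, so it does not show the rate of false calls with sGC replicate 5 in the fit.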

Other observations

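Gene families outside the lists were looked up after the called genes had been seen, so their counts are a description only. The first adjusted p of each pair is over all 13 libraries and the next without sGC replicate 5. Several belong to membrane traffic and secretion. Of 11 granins and prohormone processing enzymes, which load and process peptides in dense core vesicles, 4 were lower and 0 higher. SCG2 had a median of 213.4 CPM in control and 178.2 CPM in sGC animals (log2 fold change -0.26, edgeR adjusted p = 0.0168 and 0.0422), VGF 71.7 and 62.7 CPM (-0.25), and the convertases PCSK1 and PCSK2 were lower by 0.22 and 0.19. Of 8 subunits of the COPI coat, which returns cargo from the Golgi, COPB2, COPG1 and ARCN1 were lower by 0.12, 0.13 and 0.11, each without overlap of the groups, and COPB2 alone without sGC replicate 5. Clathrin and its adaptors gave 4 lower of 21, among them AP2B1 (803.7 and 725.3 CPM, log2 fold change -0.17, edgeR adjusted p = 0.00506 and 0.0151), and 1 higher (AP3S2). Of 3 calsyntenins, cargo adaptors and synaptic organisers, CLSTN1 and CLSTN3 were lower by 0.16 and 0.23, and dynactin gave 3 lower of 12 (DCTN1, ACTR10 and DCTN2). Without sGC replicate 5 the granin list kept all 4 calls, clathrin and its adaptors held 2 lower and 1 higher, the calsyntenins CLSTN3 alone and dynactin 0 in edgeR.

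Of 5 YWHA genes tested, adaptors that bind phosphorylated proteins, YWHAB, YWHAG, YWHAZ and YWHAQ were lower by 0.11 to 0.17, and YWHAQ lost the call without sGC replicate 5. All 7 genes tested on a list of glutamate and aspartate metabolism were below 0, and 4 were called lower, among them SLC25A12, OAT and GOT2. GOT2 had 279.7 and 241.1 CPM (log2 fold change -0.23, edgeR adjusted p = 0.00902 and 0.0249). Of the 4, 2 (SLC25A12 and GOT2) were called without sGC replicate 5.

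On the higher side, 15 of 26 further genes known from astrocytes and radial glia were called and 0 were lower, and 6 were called without sGC replicate 5. APOE had a median of 2281.6 CPM in control and 2539.0 CPM in sGC animals without overlap (log2 fold change 0.18, edgeR adjusted p = 0.00801 and 0.0221), SPARC 1151.4 and 1337.0 CPM (0.23), and the transcription factors SOX6, ID1, NFIA and GLI3 were higher by 0.29, 0.28, 0.18 and 0.23, the last pair not without sGC replicate 5. This group was put together from the called genes in part, so its count was bound to be high.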
